A study of Mus musculus with 12 samples.

Results

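The genes of coenzyme Q (ubiquinone) synthesis and binding described here are 10: Pdss1, Pdss2, Coq2, Coq3, Coq5, Coq6, Coq7, Coq8a, Coq9 and Coq10a. Every probe set that the array's annotation paired with a symbol of this group and no other was kept, which gave 18 of the 45037 probe sets that are not controls, for 9 of the 10 genes. Pdss1 had 0 such probe sets and is not analysed here. Pdss2 had 3, Coq3, Coq5, Coq8a and Coq9 had 2 each, Coq10a had 4, and Coq2, Coq6 and Coq7 had 1 each. The samples were skeletal muscle of C57Bl/6 mice on 12 Affymetrix arrays. For 4 of them the mice had eaten a high-fat diet (HFD) for 5 days, and for 4 they had eaten it for 42 days. Fat gave 46% of its calories. Both groups switched at 6 weeks of age, so the 42-day mice were also older than the 5-day mice when sampled. The control at both times was 4 samples of mice that never left chow, a diet with 13% of its calories as fat. All mice were group housed with free access to food and water, and ate chow until the switch. Which muscle was taken, the sex, how old the chow mice were and any batch are not in the labels. Nor do they tell replicate animals from repeat arrays, so p-values measure only the spread between these samples, which may be technical.

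Coenzyme Q is a lipid of the inner mitochondrial membrane, with a ring that takes up and gives off electrons and a long isoprenoid tail. It carries electrons from complex I, complex II and the electron transfer flavoprotein dehydrogenase, which serves fatty acid oxidation, to complex III. Its tail is made by the Pdss1 and Pdss2 proteins from mevalonate pathway precursors, Coq2 joins tail and ring, and the ring is then modified by Coq3, Coq5, Coq6 and Coq7 with the help of Coq8a and Coq9. In humans, inherited defects of several of these genes cause coenzyme Q deficiency that can affect muscle.

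The values were RMA signals on the log2 scale, so a difference of 1 is a doubling. A difference was called at an adjusted p under 0.05 in limma (Benjamini-Hochberg over all 45037 probe sets), and errors are SD for group values and SE for log2 fold changes. Precision is limited by having 4 arrays in a group. The median signal of the arrays averaged 7.61 ± 0.017 at 5 days, 7.67 ± 0.021 at 42 days and 7.66 ± 0.019 on chow (SD, n = 4 each). The 10 skeletal muscle markers averaged 15.07 ± 0.011 at 5 days, 15.08 ± 0.017 at 42 days and 15.08 ± 0.011 on chow, and 0 of 10 passed the test in any comparison. Transcripts of other cells were present as well: 7 measured adipocyte markers averaged 10.32 ± 0.20 at 5 days, 10.51 ± 0.37 at 42 days and 10.94 ± 0.40 on chow, and 7 hepatocyte markers averaged 8.43 ± 0.71 at 5 days, 9.58 ± 0.54 at 42 days and 8.24 ± 0.16 on chow. In such bulk samples fewer cells of a type and less RNA per cell cannot be told apart.

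Of the 18 coenzyme Q probe sets, 11 were among the 11260 brightest of the array (mean log2 signal of 9.01 or more), at least 1 for each of the 9 genes. The signals of 2 Pdss2 probe sets (6.38 and 5.31) and 2 Coq10a probe sets (6.40 and 5.61) lay under the lower quartile of 6.49. The median SD within groups was 0.0751 for the 11 bright probe sets and 0.0852 for the 11260 brightest probe sets.

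Promoter sequences (250 bases before to 50 after the start of the gene, RefSeq, GRCm38.p6) were held for 9 of the 10 genes. They are shown for Pdss2, Coq2 and Coq7, for which a probe set had all its 42-day arrays below all its 5-day arrays, as described further on. Coq5 met this rule as well but is the gene without a promoter sequence. Capitals mark matches, on either strand, to TGCGCA (the core of the nuclear respiratory factor 1 motif), TNAAGGTCA (estrogen-related receptors), CCGGAAG (ETS factors such as Gabpa), TGACGTCA (CREB), CCAAT (NFY), GGGCGG (SP factors) and TATAAA. The NFY and SP motifs overlapped each other once, in the Coq6 window.
Pdss2 chr10:43221236-43221535, plus strand: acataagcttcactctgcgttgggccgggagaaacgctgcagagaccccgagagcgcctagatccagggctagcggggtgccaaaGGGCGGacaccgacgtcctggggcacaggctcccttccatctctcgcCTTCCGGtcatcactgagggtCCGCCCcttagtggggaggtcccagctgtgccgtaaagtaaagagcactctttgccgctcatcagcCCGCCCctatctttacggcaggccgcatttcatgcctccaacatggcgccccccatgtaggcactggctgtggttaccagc
Coq2 chr5:100674207-100674506, minus strand: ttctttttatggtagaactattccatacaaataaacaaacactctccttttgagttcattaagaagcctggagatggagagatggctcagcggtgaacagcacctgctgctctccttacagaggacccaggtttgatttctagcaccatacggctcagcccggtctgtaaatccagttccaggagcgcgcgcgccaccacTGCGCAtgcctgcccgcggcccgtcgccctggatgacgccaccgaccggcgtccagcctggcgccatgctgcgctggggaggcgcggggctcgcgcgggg
Coq7 chr7:118533307-118533606, minus strand: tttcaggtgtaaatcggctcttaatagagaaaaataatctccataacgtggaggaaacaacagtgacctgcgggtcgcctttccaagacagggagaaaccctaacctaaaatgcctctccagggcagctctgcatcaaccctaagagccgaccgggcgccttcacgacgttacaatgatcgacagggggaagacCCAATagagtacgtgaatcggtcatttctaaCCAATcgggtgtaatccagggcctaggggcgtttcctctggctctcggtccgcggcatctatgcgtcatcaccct
No one motif was common to the 3. The Pdss2 window held CCGGAAG and GGGCGG, that of Coq2 held TGCGCA, and that of Coq7 held CCAAT. Over the 12 windows of the 9 genes, GGGCGG stood in 5 (35.7% of all 32851 promoter windows), CCAAT in 3 (37.4%), CCGGAAG in 3 (8.86%) and TGCGCA in 3 (7.76%). TNAAGGTCA was in 0 of the 12 and in 1.28% of all windows, TGACGTCA in 0 and 1.79%, and TATAAA in 0 and 13.6%. A match is a description of these letters and not evidence of a bound site.

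**Figure D1:**
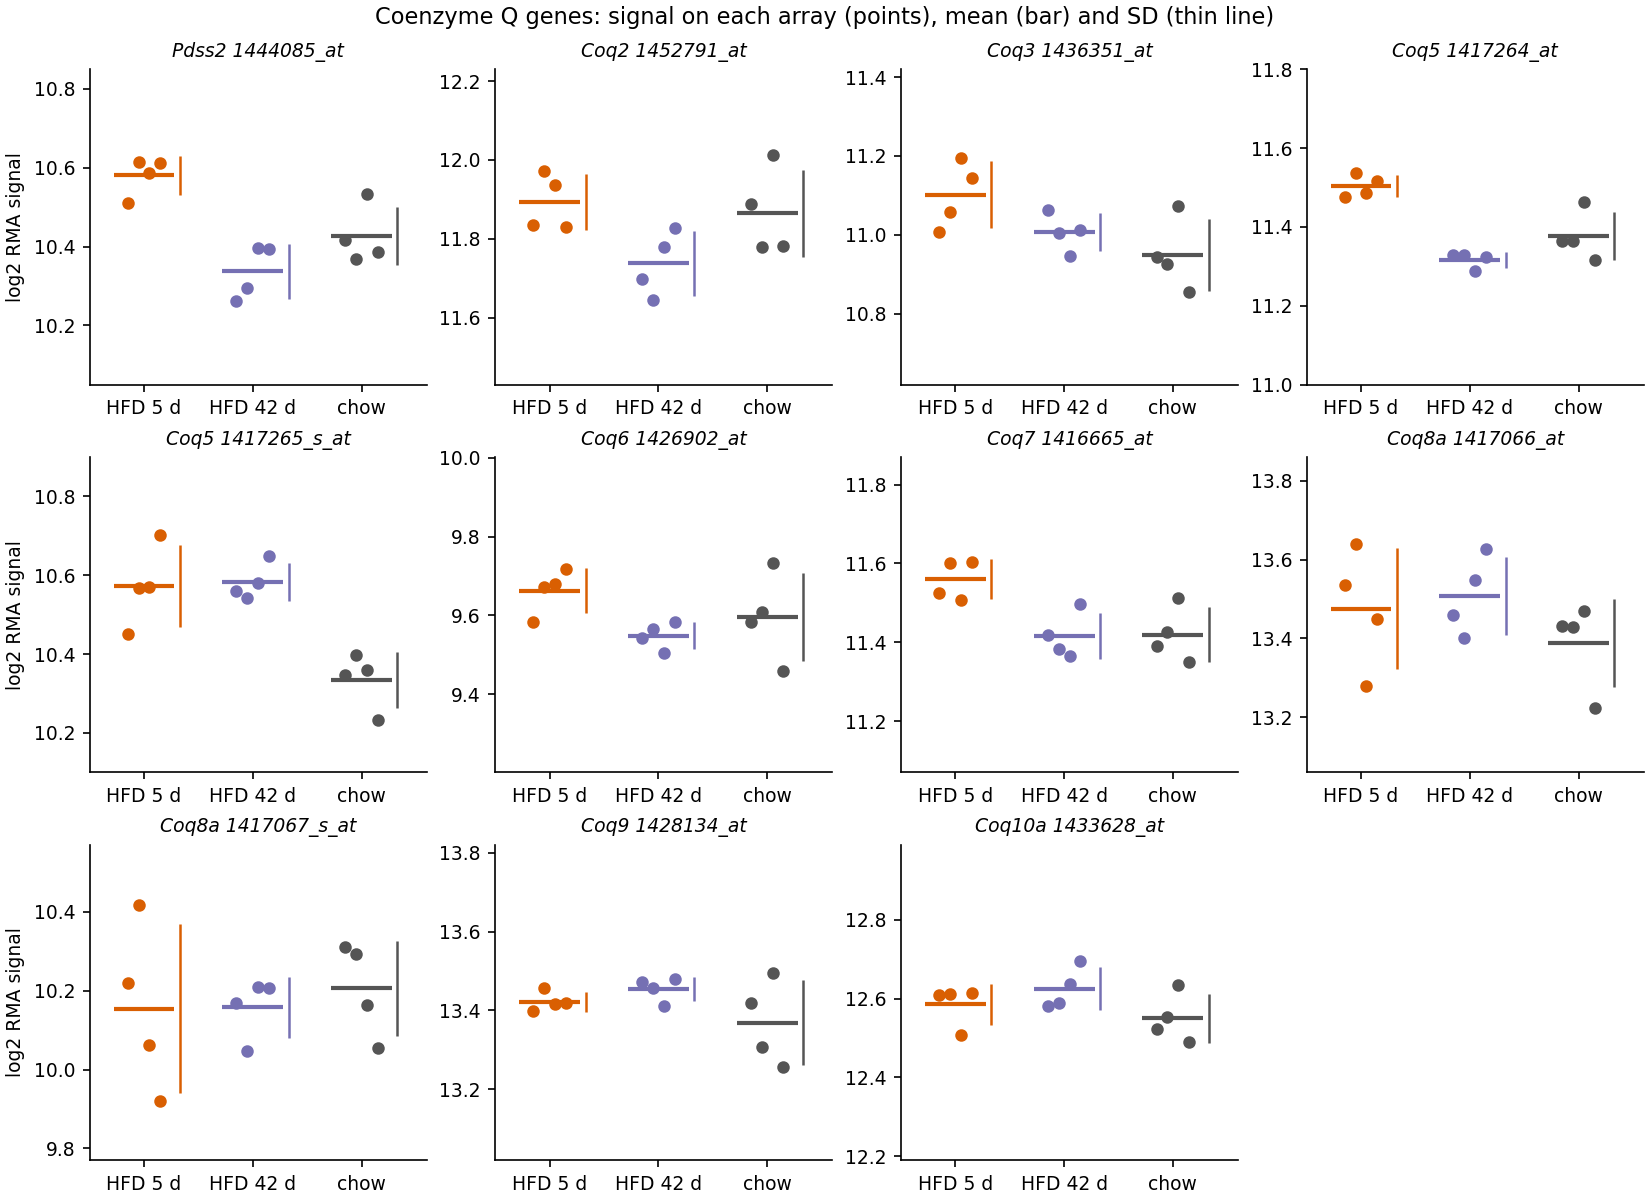
Log2 RMA signal of the 11 coenzyme Q probe sets that are among the 11260 brightest of the array, with 1 point per array, the group mean as a bar and the SD as a thin line, for 5 days of HFD, 42 days of HFD and chow (n = 4 each). Every panel spans the same 0.8 log2 units, and the groups stand clear of chow at both times only for the Coq5 probe set 1417265_s_at.

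The series is titled for insulin resistance on this diet, and the first comparison set 5 days of HFD against chow. Coq5, the C-methyltransferase of the ring, rose 1.18-fold in the probe set 1417265_s_at, and the other 17 probe sets did not pass the test. Of all probe sets, 3.21% were called in this comparison, so 1 call among 18 is near the background. The probe set 1417265_s_at read 10.45, 10.57, 10.57 and 10.70 in 5-day muscle, against 10.35, 10.40, 10.36 and 10.23 in chow muscle (log2). All 5-day arrays lay above all chow arrays, with the lowest 5-day array close to the highest chow array. The log2 fold change was 0.24 ± 0.062 (95% interval 0.11 to 0.37, limma, adjusted p = 0.0488). This call held without 5-day replicate 1 (adjusted p = 0.0376) and ended without any one of the other 11 arrays (adjusted p from 0.0548 to 0.118). It also ended after cyclic loess between arrays (log2 fold change 0.17, adjusted p = 0.134) and after quantile normalization (0.16, 0.167). In all it held in 4 of 10 alternative settings, counting a looser cutoff. Among the 4 was centring arrays on their medians (0.30, adjusted p = 0.0228), where 6.15% of all probe sets passed.

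The brighter Coq5 probe set, 1417264_at, read 11.48, 11.54, 11.49 and 11.52 at 5 days, against 11.37, 11.37, 11.46 and 11.32 on chow. Here too the groups did not overlap, but the difference of 0.13 ± 0.050 was not past the test (adjusted p = 0.145). The 5-day arrays were clear above chow in these 2 of the 18 probe sets, where 4.88% of all probe sets and 12.9% of the 11260 brightest were. Differences of similar size that missed the test were found in 3 other genes. For Coq7, the hydroxylase of the penultimate step, the 5-day arrays were at 11.53, 11.60, 11.51 and 11.61 and the chow arrays at 11.39, 11.43, 11.51 and 11.35 (0.14 ± 0.056, adjusted p = 0.143). For Coq3, the O-methyltransferase, the probe set 1436351_at averaged 11.10 ± 0.085 at 5 days and 10.95 ± 0.091 on chow (0.15 ± 0.062, adjusted p = 0.151). Its other probe set, 1437364_at, was at 0.03 ± 0.069. For Pdss2, a subunit of the tail synthase, 1444085_at read 10.51, 10.62, 10.59 and 10.61 at 5 days and 10.42, 10.37, 10.53 and 10.39 on chow (0.15 ± 0.057, adjusted p = 0.122). Of the 4 5-day arrays, 3 lay above the highest chow array for Coq7 and for Pdss2 and 2 for Coq3, and the groups overlapped.

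Counted together, 6 of the 18 probe sets, for Pdss2, Coq3, Coq5 and Coq7, were higher at 5 days at an unadjusted p under 0.05 in limma, and 0 were lower. Over all probe sets 9.90% were higher by that rule and 14.2% lower, but among the 11260 brightest 22.9% were higher and 4.40% lower. Of the 11 bright coenzyme Q probe sets, 5 were higher. The median difference at 5 days was 0.087 over these 11 and 0.062 over the 11260 brightest, against -0.021 over all probe sets. Higher values at 5 days were thus common among bright probe sets of the array as a whole. Over the 18 probe sets 15 were above 0 at 5 days, with a median of 0.0535, after cyclic loess 13 were, with a median of 0.0541, and with arrays centred on their medians 16 were, with a median of 0.113. Of all probe sets 43.9% were above 0 as deposited, and of the 11260 brightest 71.5%.

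The remaining probe sets gave no call at 5 days. The dim Pdss2 probe sets were at 0.19 ± 0.084 (1430723_at, adjusted p = 0.189) and 0.04 ± 0.090 (1459473_at). Coq2, which joins the tail to the ring, was at 0.03 ± 0.066, with an interval from -0.11 to 0.17. Coq6, a monooxygenase of the ring, was at 0.07 ± 0.061 (-0.06 to 0.20). Coq9, a lipid-binding partner of Coq7, was at 0.05 ± 0.058 and 0.05 ± 0.061 in its 2 probe sets. Coq8a, an atypical kinase-like protein needed for synthesis, was at 0.09 ± 0.081 in 1417066_at and at -0.05 ± 0.092 in 1417067_s_at. Coq10a, a coenzyme Q-binding protein of the START family, was at 0.04 ± 0.054 in its brightest probe set and between -0.12 and 0.01 in the other 3. For Coq8a 1417067_s_at the interval ran from -0.25 to 0.15.

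**Figure D2:**
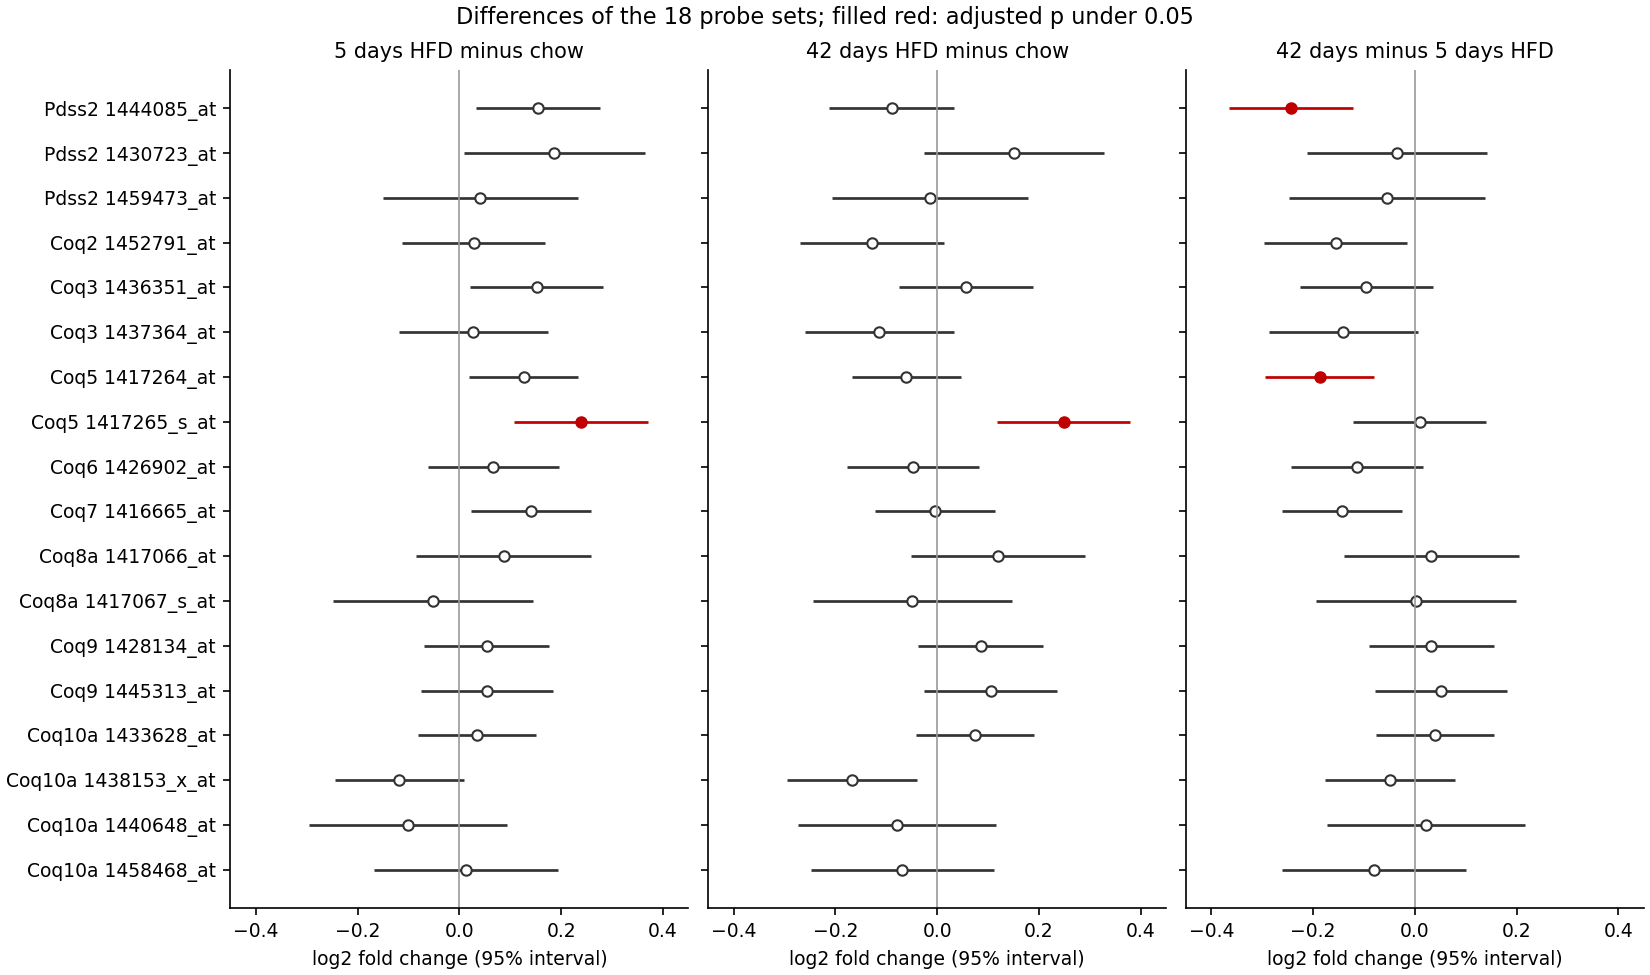
Log2 fold changes with 95% intervals from limma for the 18 coenzyme Q probe sets in the 3 comparisons, with filled red points at an adjusted p under 0.05. The red points are Coq5 1417265_s_at at 5 days (0.24) and at 42 days (0.25) against chow, and Pdss2 1444085_at (-0.24) and Coq5 1417264_at (-0.19) at 42 against 5 days.

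The second comparison set 42 days on the diet against the same chow arrays. As the age of the chow mice is not in the labels, diet cannot be told apart from age in either comparison with chow. Coq5 again was the only gene called, in 1417265_s_at, which rose 1.19-fold, and the other 17 probe sets did not pass. Of all probe sets, 8.78% were called, so 1 of 18 is again no more than the background. The probe set read 10.56, 10.54, 10.58 and 10.65 in 42-day muscle, against the chow values of 10.35, 10.40, 10.36 and 10.23. Every 42-day array lay above every chow array, and the 42-day arrays were closer to each other than the 5-day arrays had been (SD 0.047 and 0.10). The log2 fold change was 0.25 ± 0.062 (0.12 to 0.38, adjusted p = 0.0212). The call ended without 42-day replicate 4 (0.23, adjusted p = 0.0712) or chow replicate 4 (0.21, adjusted p = 0.0655), and when the mean adipocyte marker level was added to the fit (0.22, adjusted p = 0.116), where 3.36% of all probe sets passed.

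The brighter Coq5 probe set did not follow. It read 11.33, 11.33, 11.29 and 11.32 at 42 days, against 11.37, 11.37, 11.46 and 11.32 on chow, a difference of -0.06 ± 0.050 (-0.17 to 0.05, adjusted p = 0.52). The 2 probe sets thus gave different pictures of the gene at 42 days, by 0.31 on the log2 scale when compared within arrays. An exact two-sided permutation test of that within-array difference gave p = 0.0286, the smallest that 4 against 4 arrays allow, and 0.193 after adjustment over the 27 such comparisons made between probe sets of the same gene. At 5 days against chow the same comparison gave 0.11 (exact p = 0.143, adjusted 0.297). The name of 1417265_s_at ends in _s_at, the array maker's mark for probes that may match more than 1 transcript, and its part in the difference was not tested.

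**Figure D3:**
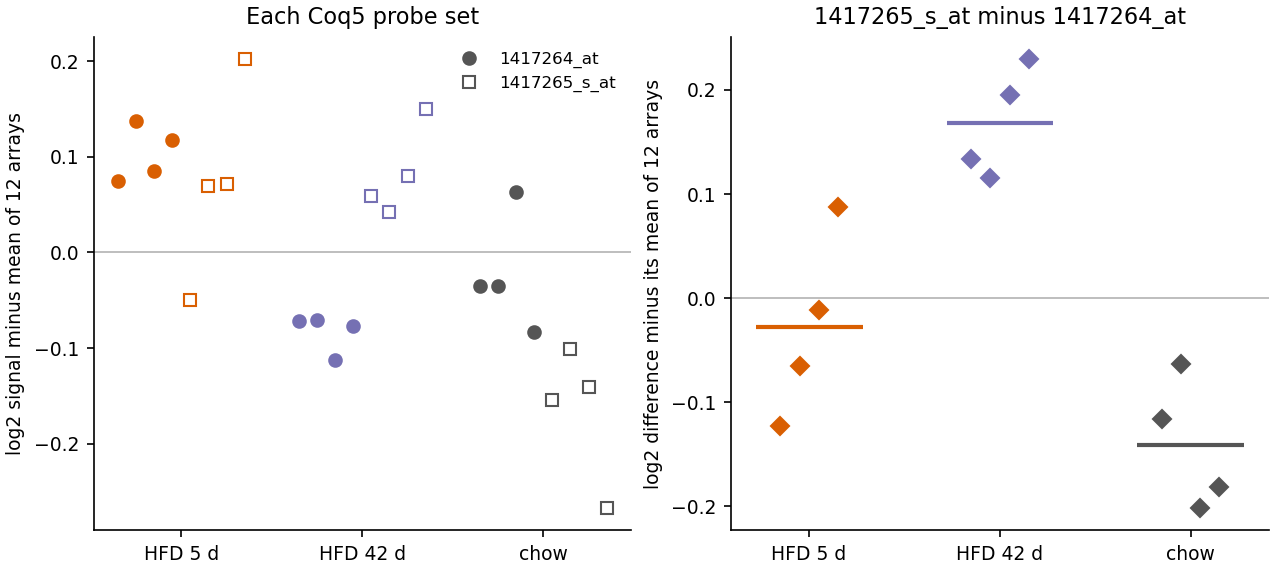
Left, log2 signal of the Coq5 probe sets 1417264_at (filled circles) and 1417265_s_at (open squares) on each array minus the probe set's mean over the 12 arrays. Right, the within-array difference 1417265_s_at minus 1417264_at, also minus its mean over the 12 arrays, with the group mean as a bar; the 42-day arrays lie above all 5-day and chow arrays, by 0.31 on average against chow.

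The other members stayed within 0.17 of chow at 42 days, with none past the test. Coq7 averaged 11.42 ± 0.058 at 42 days and 11.42 ± 0.069 on chow, a difference of -0.0038 ± 0.056 with an interval from -0.12 to 0.11. The tail synthase subunit Pdss2 was at -0.09 ± 0.057 in 1444085_at. Its dim probe set 1430723_at was at 0.15 ± 0.084, with 42-day arrays spread from 6.16 to 6.63, and 1459473_at was at -0.01 ± 0.090. Coq2 read 11.70, 11.65, 11.78 and 11.83 at 42 days, against 11.89, 11.78, 12.01 and 11.78 on chow (-0.13 ± 0.066, -0.27 to 0.01, adjusted p = 0.269). Coq3 was at 0.06 ± 0.062 and -0.11 ± 0.069 in its 2 probe sets, and Coq6 at -0.05 ± 0.061.

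Coq8a and Coq9, the accessory proteins of ring synthesis, were both close to chow. Coq8a 1417066_at read 13.46, 13.40, 13.55 and 13.63 at 42 days, against 13.43, 13.43, 13.47 and 13.22 on chow (0.12 ± 0.081, adjusted p = 0.412). Coq9 1428134_at read 13.47, 13.46, 13.41 and 13.48 at 42 days, against 13.42, 13.31, 13.50 and 13.26 on chow (0.09 ± 0.058, adjusted p = 0.409). The chow arrays enclosed the whole range of the 42-day arrays for Coq9, whose SD was 0.031 at 42 days and 0.11 on chow. In the dimmer Coq9 probe set 1445313_at the 42-day arrays, at 7.56, 7.47, 7.50 and 7.48, all lay above the chow arrays, at 7.38, 7.38, 7.46 and 7.37, without passing the test (0.11 ± 0.061, adjusted p = 0.331). With Coq5, that made 2 of 18 probe sets with 42-day arrays clear above chow, where 7.42% of all probe sets were, and 0 of 18 clear below, where 7.81% were.

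Probe sets of a gene also differed in sign at 42 days, with no call, for Pdss2, Coq3, Coq8a and Coq10a. Within arrays 1430723_at differed from 1444085_at of Pdss2 by 0.24 against chow (exact p = 0.0857, 0.257 adjusted over the 27). For Coq3 the gap between its 2 probe sets was -0.17 (exact p = 0.114), and for Coq8a it was -0.17 (exact p = 0.0571). For Coq10a, the brightest probe set, 1433628_at, read 12.58, 12.59, 12.64 and 12.70 at 42 days, against 12.52, 12.55, 12.64 and 12.49 on chow (0.08 ± 0.054, adjusted p = 0.452). The probe set 1438153_x_at, whose suffix marks probes shared with other sequences, read 7.48, 7.45, 7.60 and 7.62 at 42 days, against 7.71, 7.69, 7.82 and 7.60 on chow (-0.17 ± 0.060, adjusted p = 0.1003). Within arrays they differed by -0.24 at 42 days and -0.15 at 5 days against chow (exact p = 0.0286 for each, 0.193 adjusted over the 27). The other 2 Coq10a probe sets, both dim, were at -0.08 ± 0.092 and -0.07 ± 0.085.

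The third comparison, 42 against 5 days, shares its 5-day and 42-day arrays with the comparisons above. In it days on the diet cannot be told apart from age, as the 42-day mice were older. Pdss2 fell 1.18-fold in 1444085_at and Coq5 1.14-fold in 1417264_at, so 2 of 18 probe sets passed, where 5.98% of all probe sets did and 11.6% of the 11260 brightest. For Pdss2, the 42-day arrays were at 10.26, 10.29, 10.40 and 10.40, against 10.51, 10.62, 10.59 and 10.61 at 5 days (-0.24 ± 0.057, -0.37 to -0.12, adjusted p = 0.0305). For Coq5 1417264_at, they were at 11.33, 11.33, 11.29 and 11.32, against 11.48, 11.54, 11.49 and 11.52 (-0.19 ± 0.050, -0.29 to -0.08, adjusted p = 0.0435). In both the 42-day arrays were all below the 5-day arrays, while chow lay between the group means. The other probe sets of these genes did not pass: Coq5 1417265_s_at was at 0.0098 ± 0.062 (adjusted p = 0.931), Pdss2 1430723_at at -0.04 ± 0.084 and Pdss2 1459473_at at -0.06 ± 0.090. The 2 Coq5 probe sets differed within arrays by 0.20 in this comparison (exact p = 0.0286, 0.193 adjusted over the 27). The Pdss2 call ended without 5-day replicate 2 (adjusted p = 0.0813) or 3 (0.067), or 42-day replicate 1 (0.0932), 2 (0.0752) or 4 (0.0563). The Coq5 call was kept without chow replicate 1, 3 or 4 and ended without any one of the other 9 arrays (adjusted p from 0.0532 to 0.109). Both calls ended after cyclic loess (-0.14 and -0.09, adjusted p = 0.105 and 0.265). Both held with arrays centred on their medians (-0.31 and -0.25, adjusted p = 0.00976 and 0.0114), where 11.6% of all probe sets passed. Of 12 alternative settings, counting a looser cutoff, the Pdss2 call held in 10 and the Coq5 call in 8.

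Coq7 and Coq2 were the other 2 genes with 42-day arrays all below the 5-day arrays. Coq7 read 11.42, 11.38, 11.37 and 11.50 at 42 days, against 11.53, 11.60, 11.51 and 11.61 at 5 days (-0.14 ± 0.056, adjusted p = 0.115). Coq2 read 11.70, 11.65, 11.78 and 11.83, against 11.84, 11.97, 11.94 and 11.83 (-0.16 ± 0.066, adjusted p = 0.145). For Coq2 the gap was narrow, as the highest 42-day and the lowest 5-day array agreed to 2 decimals. These 4 of 18 stand beside 9.87% of all probe sets with 42-day arrays clear below the 5-day arrays, and beside 27.7% of the 11260 brightest, which held all 4. The median difference of 42 against 5 days was -0.095 over the 11 bright coenzyme Q probe sets and -0.088 over the 11260 brightest.

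A moderated F-test for any difference between the 3 groups called 3 of the 18 probe sets, Pdss2 1444085_at (adjusted p = 0.0301), Coq5 1417264_at (0.0492) and Coq5 1417265_s_at (0.0239), where 12.9% of all probe sets were called. Over the 12 arrays, the genes whose brightest probe sets ran most like Pdss2 1444085_at were Lars, the leucyl-tRNA synthetase (Pearson r = 0.967), and Canx, the chaperone calnexin (r = 0.967). Those most like Coq5 1417265_s_at were Pdhx, a subunit of the pyruvate dehydrogenase complex (r = 0.955), and B4gat1, a glycosyltransferase (r = 0.951). They are the 2 highest coefficients for each, over arrays that share groups and scaling, and are given as a description. Pdhx was higher by 0.33 at 5 days and by 0.30 at 42 days, and Coq5 1417265_s_at by 0.24 and 0.25, all against the same chow arrays.

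The genes around coenzyme Q were read through the brightest probe set of each. Of these probe sets over all genes, 2.89% were called at 5 days and 6.31% at 42 days. Among 7 other measured genes of coenzyme Q synthesis and handling, 0 passed at 5 days and 2 fell at 42 days. These were Pptc7, a mitochondrial phosphatase (-0.25 ± 0.072, adjusted p = 0.0381), and Aifm2, which reduces coenzyme Q outside mitochondria (-0.34 ± 0.093, adjusted p = 0.0322). Coq10b, the paralog of Coq10a, was at 0.32 ± 0.097 at 5 days (adjusted p = 0.0734) and 0.24 ± 0.097 at 42 days (0.136). Coq8b, the paralog of Coq8a, was at -0.07 ± 0.064 at 5 days and 0.03 ± 0.064 at 42 days.

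The mevalonate pathway, which supplies the tail, had 9 measured genes, of which 0 passed at 5 days and 2 fell at 42 days. Idi1, the isopentenyl diphosphate isomerase, averaged 8.03 ± 0.068 at 42 days, against 8.32 ± 0.021 (SD, n = 4 each) on chow (-0.29 ± 0.050, adjusted p = 0.00306). Hmgcs1, the HMG-CoA synthase, fell by 0.23 ± 0.058 on the log2 scale (adjusted p = 0.0251). The smallest p-values at 5 days belonged to Mvk, the mevalonate kinase (0.18 ± 0.056, adjusted p = 0.0775), Idi2, a paralog of Idi1 (-0.20 ± 0.079, adjusted p = 0.1495), and Fdps, which makes farnesyl diphosphate (0.14 ± 0.066, adjusted p = 0.193). The list median at 42 days was -0.093, against -0.013 over the brightest probe sets of all genes.

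Of 12 enzymes that pass electrons to coenzyme Q, 1 rose at 5 days, and 2 rose and 1 fell at 42 days. Etfdh, the electron transfer flavoprotein dehydrogenase, was higher by 0.29 ± 0.060 at 5 days (adjusted p = 0.0305) and by 0.45 ± 0.060 at 42 days (adjusted p = 0.000612). Etfa, a subunit of the flavoprotein that feeds it, rose by 0.33 ± 0.056 at 42 days (adjusted p = 0.00264), and Dhodh, of pyrimidine synthesis, fell by 0.32 ± 0.068 (adjusted p = 0.0104). The 4 complex II subunits were between 0.03 and 0.15 above chow, with 0 of 4 past the test at either time. Of 11 complex I subunits, Ndufs1 alone was called, at 5 days (0.24 ± 0.055, adjusted p = 0.0355) and at 42 days (0.19 ± 0.055, adjusted p = 0.0457). Among 9 complex III subunits, which take electrons from coenzyme Q, 0 passed at either time, with medians of 0.036 and 0.026.

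Fatty acid oxidation passes electrons to coenzyme Q through Etfdh. Its list, which also holds Fabp3 and Cd36 of fatty acid binding and uptake, had 15 measured genes, all 15 above chow at both times. Of these, 2 were called at 5 days and 9 at 42 days, with Fabp3 among the calls at both times and Cd36 at 42 days. At 42 days Acadl, the long-chain acyl-CoA dehydrogenase, was at 0.52 ± 0.053, and Fabp3, the muscle fatty acid-binding protein, at 0.63 ± 0.060. The median difference at 42 days was 0.28 in that list, -0.0038 over the brightest probe sets of the 9 coenzyme Q genes, and 0.057 over 11 genes of mitochondrial content, of which 0 passed. Of 8 regulators of mitochondrial genes, 0 passed against chow at either time. At 42 against 5 days 2 fell, Ppargc1a, the coactivator PGC-1alpha (-0.44 ± 0.099, adjusted p = 0.028), and the receptor Ppard (-0.27 ± 0.061, adjusted p = 0.028), where 6.1% of genes were called. Pptc7 (-0.26 ± 0.072), Hmgcs1 (-0.34 ± 0.058) and Idi1 (-0.20 ± 0.050) also fell in this comparison. Others went the opposite way: 2 of the 15 genes of the fatty acid oxidation list rose, Acadl (0.26 ± 0.053) and Cd36 (0.39 ± 0.086), and 0 fell. Any part of these genes in the Pdss2 and Coq5 values was not tested.

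**Figure D4:**
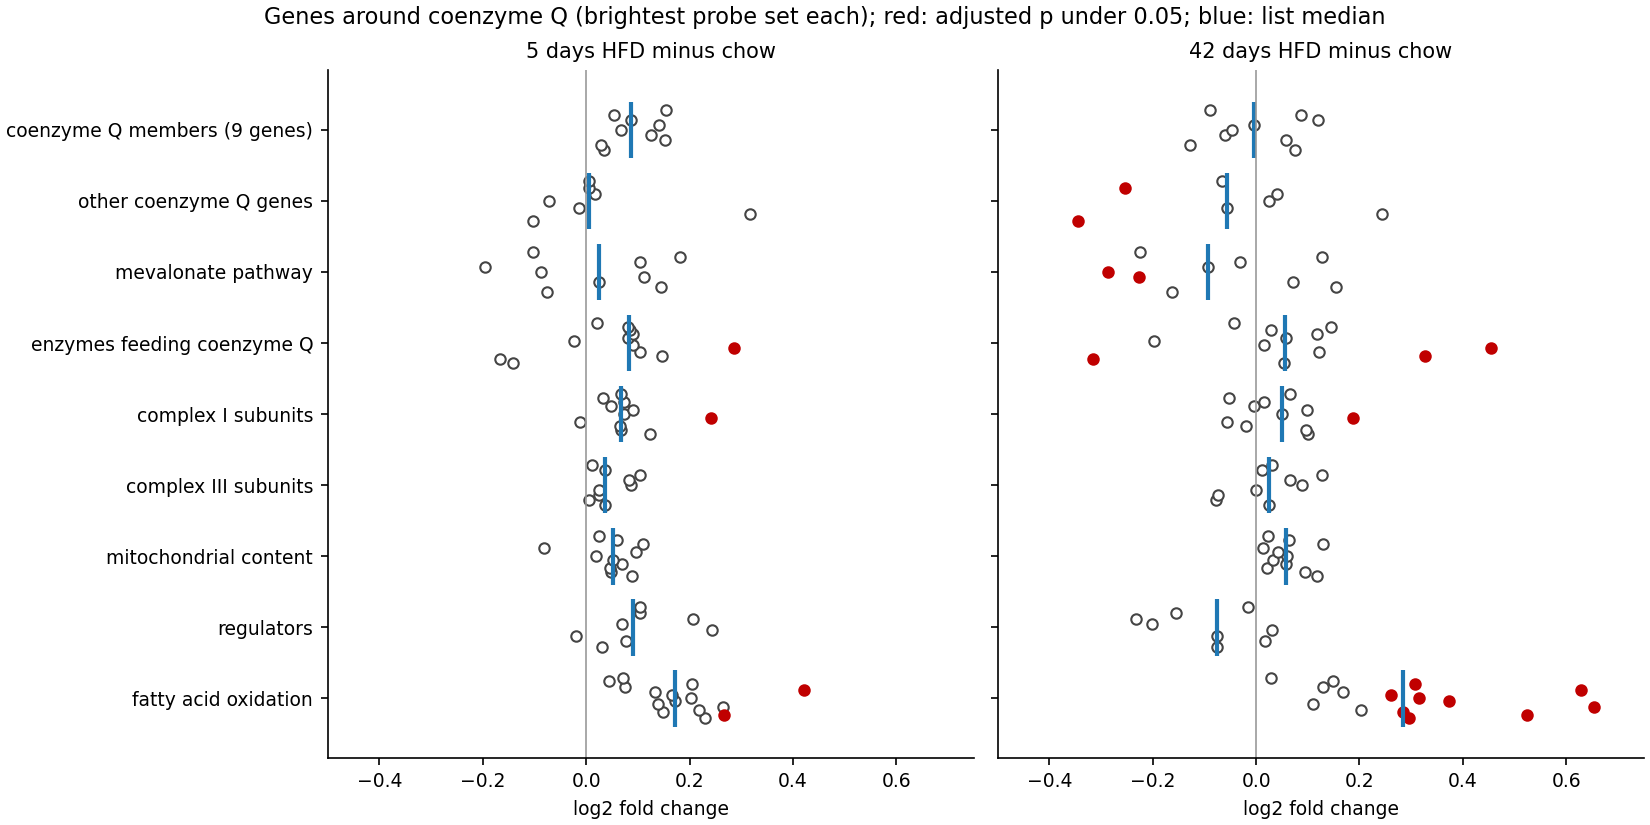
Log2 fold changes against chow at 5 days (left) and 42 days (right) of HFD for the brightest probe set of each coenzyme Q gene and of genes in 8 surrounding lists, with red points at an adjusted p under 0.05 and a blue bar at the list median. The 9 coenzyme Q genes are uncalled at both times, while 9 of 15 genes of the fatty acid oxidation list are called at 42 days.

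Markers of fibre type and other cells moved in the same comparisons. The 8 slow fibre markers averaged 12.69 ± 0.12 at 5 days, 12.66 ± 0.044 at 42 days and 12.41 ± 0.29 on chow. In each of the 8 the mean was above chow at both times, but 0 passed at 5 days and 2 at 42 days, Tnni1 (0.44 ± 0.13) and Atp2a2 (0.33 ± 0.095). Single chow arrays ran from 12.08 to 12.78 in that marker mean, a range that held all 4 42-day arrays (12.63 to 12.73). All 7 hepatocyte markers rose at 42 days, with a median of 1.21, and 4 of 7 tendon and fibroblast markers rose, with a median of 0.72. Of the 7 adipocyte markers, all were below chow at 5 days and 2 passed, Retn and Cidec, and 0 passed at 42 days. Of 5 endothelial markers, Vwf (0.33 ± 0.076) and Cldn5 (0.37 ± 0.087) rose at 5 days and Pecam1 (0.43 ± 0.11) at 42 days, and Vwf fell at 42 against 5 days (-0.33 ± 0.076). Kdr was below chow at 5 days (-0.13 ± 0.080) and at 42 days (-0.15 ± 0.080), uncalled. The endothelial mean was 9.36 ± 0.15 at 5 days, 9.25 ± 0.080 at 42 days and 9.13 ± 0.049 on chow. Of 5 macrophage markers, Lyz2 rose at 42 days (0.35 ± 0.087), while 2 of the 5 were below chow then, uncalled. The macrophage mean was 9.62 ± 0.055 at 5 days, 9.67 ± 0.088 at 42 days and 9.59 ± 0.081 on chow. At 42 against 5 days 6 of 7 hepatocyte and 3 of 7 tendon and fibroblast markers rose. Cd3e rose among 4 lymphocyte markers (0.23 ± 0.058), and Elovl3 rose (0.27 ± 0.067) among 5 brown adipocyte markers. Ppargc1a, also on that list, fell, which is the same result as given for it among the regulators. The other 4 of the list were higher at 42 than at 5 days. The 5 brown adipocyte markers averaged 7.82 ± 0.090 at 5 days, 7.99 ± 0.33 at 42 days and 8.51 ± 0.49 on chow. Against chow 0 of them passed at either time, with Cidea at -1.65 ± 0.43 and Ucp1 at -1.47 ± 0.42 at 5 days.

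The part of these markers in the coenzyme Q differences was not tested beyond the adipocyte covariate. With it the Coq5 1417265_s_at values were 0.20 at 5 days and 0.22 at 42 days, neither past the test in limma. In that fit 0 of the 45037 probe sets passed at 5 days and 3.36% at 42 days, so the lost 5-day call is not particular to Coq5.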

How the data were processed

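Skeletal muscle RNA was labelled as biotin cRNA and hybridised to 12 Affymetrix arrays, per the labels' protocols. The deposited values are log2 RMA signals per probe set; RMA is named in the submitters' processing notes with no version or software, and values between 3.67 and 15.46 mark the scale as log2. As deposited, the medians of the arrays still differed slightly between groups, by amounts near the size of the smaller differences described, so further scaling was tried.

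Of 45098 probe sets, 61 controls were left out, and 34945 of the rest carried 1 gene symbol, 932 several and 9160 none. Entrez identifiers matched the reference gene table for 34741 and not for 204, with 0 symbols changed. For the 45037 probe sets, group means over the 12 arrays were estimated by limma 3.58.1 (R 4.3.3) (9 residual and 6.26 prior degrees of freedom) in 3 two-sided contrasts, and p-values were adjusted by Benjamini-Hochberg within a contrast. Surrounding genes (139 of 150 listed were measured, in 17 lists) were read through their brightest probe set in the same fit. Those named come from the 4 smallest p-values of a list in a contrast, not all of which are given, and for each called member the 2 genes of highest Pearson r were named. The procedure was tested on simulated data. The members and lists were chosen with earlier results of these data known, and the probe set pairs of a gene were compared after their values were seen.

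Alternatives were quantile normalization, cyclic loess, median centring, leaving out the dimmest 40% of probe sets, the brightest probe set of a gene or their mean, leaving out _x_at and _s_at probe sets, array weights, a trended and robust prior, only the 8 arrays of a comparison, a replicate block, the adipocyte marker mean as a covariate, an adjusted p under 0.1, and each array left out. Replicate numbers did not clearly pair the arrays: deviations from the group means correlated over 0.1 in 4 of 12 same-numbered pairs (range -0.18 to 0.18). Replicate 1 arrays correlated at 0.18, 0.11 and 0.16, so whether the numbers mark a pairing cannot be told. No 2 arrays were copies, since at least 98.3% of values differed between any 2.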

Additional observations from a re-analysis of the deposited data

Results flagged for a closer look

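Of 54 groups of 4 arrays (18 probe sets in 3 groups), 7 held an array whose gap to its nearest neighbour relative to the range of the group was over Dixon's 95% limit; chance gives about 1 in 20. These were 5-day replicate 3 in Pdss2 1459473_at (5.429, nearest 5.324) and in Coq10a 1433628_at (12.507, nearest 12.61). They were also 42-day replicate 3 in Coq5 1417264_at (11.287, nearest 11.323) and 42-day replicate 2 in Coq10a 1440648_at (6.153, nearest 6.433) and 1458468_at (5.387, nearest 5.617). The remaining 2 were chow replicate 4 in Coq8a 1417066_at (13.224, nearest 13.429) and chow replicate 3 in Coq9 1445313_at (7.456, nearest 7.382).

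Age at sampling differed between the diet times as well as days on the diet. By the limma contrast of 42 against 5 days, values differed in Pdss2 1444085_at (-0.244, adjusted p = 0.0305) and Coq5 1417264_at (-0.1867, adjusted p = 0.0435). All 4 of the 42-day arrays lay below all 4 of the 5-day arrays in both.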

How the results depend on the processing

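As deposited, 1 coenzyme Q probe set passed at 5 days against chow, 1 at 42 days against chow, 2 at 42 against 5 days, and 3 in the F-test. After quantile normalization or cyclic loess the counts were 0 at 5 days, 1 at 42 days, 0 at 42 against 5 days and 1 in the F-test. Of all probe sets 1.07% and 1.11% passed at 5 days, 9.49% and 9% at 42 days, and 2.69% and 2.5% at 42 against 5 days. For the F-test the share of all probe sets, 12.9%, is given only as deposited. The brightest probe set per gene gave 0 at 5 days and 0 at 42 days (3.8% and 5.56% of genes). It gave 2 at 42 against 5 days (8.52% of genes) and 2 in the F-test. Averaging the probe sets of each gene kept 1 at 5 days, Coq5, where 3.83% of genes passed. It gave 0 at 42 days (4.99% of genes), 0 at 42 against 5 days (2.91%) and 1 in the F-test. Leaving out _x_at and _s_at probe sets removes the Coq5 probe set called against chow. The counts were then 0 at 5 days (3.31% of all), 0 at 42 days (8.18%), 2 at 42 against 5 days (5.23%) and 1 in the F-test. Array weights, and a fit of only the 8 arrays compared, each gave 0 at 5 days, where 1.5% and 0.0155% of all probe sets passed. Each gave 2 at 42 against 5 days, where 7.81% and 6.45% of all probe sets passed. With the adipocyte covariate the counts were 0 at 5 days (0 of all 45037), 0 at 42 days (3.36%), 1 at 42 against 5 days (6.58%) and 0 in the F-test. Leaving out each array in turn gave 0 to 1 at 5 days, 0 to 1 at 42 days, 0 to 2 at 42 against 5 days and 1 to 3 in the F-test. The cause of these changes was otherwise not tested. No direction of a called probe set reversed.

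The replicate numbers did not clearly pair the arrays (for 4 of 12 arrays the best match carried the same number). With the replicate block the counts were 0 at 5 days, 1 at 42 days and 1 at 42 against 5 days, where 3.6%, 8.69% and 6.29% of all probe sets passed. The block ended the calls of Coq5 1417265_s_at at 5 days (limma adjusted p = 0.0602) and Coq5 1417264_at at 42 against 5 days (0.05995).

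Under these alternatives the number called ran from 0 to 4770 at 5 days, 908 to 6114 at 42 days and 529 to 6769 at 42 against 5 days. The lows of 908 and 529 came from averaging the probe sets of each gene, so they are counts of 18193 genes. In fits of all 45037 probe sets the lows were 1515 (adipocyte covariate) and 1128 (cyclic loess). The highs came from the looser cutoff of an adjusted p under 0.1. With 1 array left out the number ran from 5 to 1591, 1945 to 4407 and 32 to 3173 over all probe sets. Centring arrays on their median raised the share of calls that were higher at 5 days to 85.3%, against 47.5% as deposited, and lowered it at 42 against 5 days to 9.69%, against 39.9%. Of 1156 values for the 50 uncalled member results, 1 passed, Coq7 at 42 against 5 days after that centring (-0.21, adjusted p = 0.0348). In that setting 11.6% of all probe sets passed.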
